A study of Mus musculus with 2 samples.

Results

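The genes described are 5 components of cytotoxic granules, Gzma, Gzmb, Gzmk, Prf1 and Nkg7, out of 30905 genes measured. They were selected on their levels by class in these same libraries, so those levels and the ratios between the libraries are given as a description with no test. They were read as raw UMIs (unique molecular identifiers, each standing for 1 captured RNA molecule) in CD8, innate-like, gamma delta, naive and regulatory T-like cells, innate lymphoid-like cells and the cells that carry mast cell proteases. The libraries are droplet single-cell RNA-seq of leukocytes sorted for CD45 from mouse colon. The first library came from mice on a fasting-mimicking diet (FMD), and the other from mice fed ad libitum. All were male C57BL/6 mice that had received azoxymethane at 12 mg/kg, a carcinogen, and 3 cycles of 2.5% dextran sodium sulfate, which injures the colon lining, each with 7 days of the sulfate and 14 days of water. The diets began with cycle 2. Each diet is 1 library pooled from 4 mice, so nothing in the data gives the spread between mice, no difference could be tested, and mouse, library and diet cannot be told apart. The samples are labelled as colorectal cancer tissue, while the labels' extraction text also speaks of normal colon.

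Cytotoxic lymphocytes kill through granules that they release onto a target cell. Perforin, the product of Prf1, forms pores in the target's membrane, and granzymes are serine proteases that enter through them. Granzyme B, from Gzmb, cleaves after aspartate and can start apoptosis, granzyme A, from Gzma, is a tryptase that can cleave gasdermin B in human cells, and granzyme K, from Gzmk, is another tryptase. Nkg7 is a membrane protein of the granule that takes part in its release. Intestinal epithelium and lamina propria hold many lymphocytes with such granules, and regulatory T cells and mast cells can make granzyme B as well.

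Gzma lies on chromosome 13 of GRCm38 at chr13:113093825-113100981, on the minus strand, and Gzmk lies at chr13:113171608-113225908 on the same strand, 70.6 kb away. Gzmb lies at chr14:56258838-56262260, on the minus strand, 24.2 kb from Gzmc and 173.6 kb from the basophil protease gene Mcpt8. Prf1 is at chr10:61297833-61304680 and Nkg7 at chr7:43437073-43438249, both on the plus strand. In GENCODE vM21 all are protein-coding genes, and of the 5 the Gzmk span is the one that overlaps another annotated gene, Esm1.

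The stretches before the starts of Gzmb and Gzma are shown because these granzyme genes differed the most between the libraries over all cells, and in opposite directions. Each has 250 bases on the minus strand, 5′ to 3′, ending at the base before the RefSeq start (RefSeq, GRCm38.p6), at chr14:56262335-56262584 for Gzmb and chr13:113100982-113101231 for Gzma. Capitals mark matches, on either strand, to letters that factors of 4 families are known to bind, which are TGTGGT for RUNX, TGANTCA for AP-1, GTGTGA for T-box and AGATAA for factors of the GATA family.
Gzmb: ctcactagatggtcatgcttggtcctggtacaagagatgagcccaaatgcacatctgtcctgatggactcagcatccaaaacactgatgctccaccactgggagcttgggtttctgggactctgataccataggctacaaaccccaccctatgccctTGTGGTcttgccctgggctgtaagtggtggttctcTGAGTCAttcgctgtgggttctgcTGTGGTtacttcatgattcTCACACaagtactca
Gzma: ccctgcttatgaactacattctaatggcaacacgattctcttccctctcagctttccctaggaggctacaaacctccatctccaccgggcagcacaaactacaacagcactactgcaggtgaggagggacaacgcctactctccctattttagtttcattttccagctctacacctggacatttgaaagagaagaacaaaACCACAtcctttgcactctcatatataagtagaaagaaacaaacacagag
The Gzmb stretch held 2 RUNX matches, starting 93 and 34 bases before the start, 1 AP-1 match 58 bases before it and 1 T-box match 15 bases before it. None of these matches overlapped. The Gzma stretch held 1 RUNX match, 50 bases before the start, and no match to the other 3 motifs. In stretches of the same length before all 32851 RefSeq starts, the RUNX letters were found in 14.0%, the AP-1 letters in 6.75%, the T-box letters in 12.3% and the GATA letters in 9.99%. The other genes' stretches held 1 RUNX match in Prf1, 1 RUNX and 1 T-box match in Nkg7, and 2 T-box matches in Gzmk. Some RefSeq starts differ from the GENCODE spans given above. The Gzmk stretch, at chr13:113180966-113181215, lies within the Gzmk span. The Nkg7 stretch, at chr7:43436888-43437137, has its end and its T-box match within the Nkg7 span, and the Prf1 stretch also ends within its span. The RefSeq start of Gzmb lies outside its span.

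The kept cells were 4622 of 5877 barcodes in the FMD library and 4865 of 6089 in the ad libitum library, with medians of 5742.5 and 5506 UMIs. There were 4 barcodes shared between the kept cells of both libraries. Classes were rebuilt by clustering with the 5 genes and all other granzymes left out, so that the levels below did not define the clusters. A class is called after its markers, with "like" added. Levels are UMIs per 1000000 (CPM) of the class's UMIs outside immunoglobulin and mitochondrial genes, and intervals are exact 95% intervals that cover counting error only. As a measure of free RNA, these genes were also read in B-like cells, where granzymes are not usually made. Of 2752 FMD and 3077 ad libitum B-like cells, with median depths of 5207 and 5064 UMIs, 0.109% and 0.163% had a UMI of Gzma, 0.472% and 0.325% of Gzmb, 0.0363% and 0% of Gzmk, and 0.218% and 0.325% of Nkg7. Prf1 stood higher there, at 2.40% in FMD and 1.40% in ad libitum B-like cells, which held 31.4% and 19.1% of the Prf1 UMIs of their libraries. At 5.12 CPM [4.02, 6.43] in FMD its level was above that of regulatory T-like cells, so B-like cells are not taken as its background. The 0 for Gzmk allows a share of up to 0.0975%.

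Over all kept cells, Gzmb had 3640 UMIs in the FMD library and 2153 in the ad libitum library, a log2 ratio (FMD over ad libitum) of 0.76 [0.68, 0.83]. Gzma went the other way, with 792 UMIs in the FMD and 1833 in the ad libitum library (log2 ratio -1.21 [-1.33, -1.09]). It was the 1 gene of the 5 that was at least 2-fold apart over all cells, where 3.8% of 12970 genes with at least 20 UMIs were. Gzmk had 86 and 90 UMIs, Prf1 236 and 241, and Nkg7 2425 and 2556 in the FMD and ad libitum libraries, and the interval of each of these 3 log2 ratios included 0. The cells that held the transcripts also differed between the libraries. Ratios over all cells, and the shares below, depend on the number of cells in each class as well as on the level per class. There were 287 FMD and 177 ad libitum regulatory T-like cells, 84 and 109 effector CD8 T-like cells, and 48 and 70 gamma delta T-like cells. Regulatory T-like cells held 38.2% of the FMD library's Gzmb UMIs and 15.1% of the ad libitum library's, while effector CD8 T-like cells held 12.6% in FMD and 25.4% in ad libitum, and gamma delta T-like cells 4.40% and 18.6%.

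**Figure D1:**
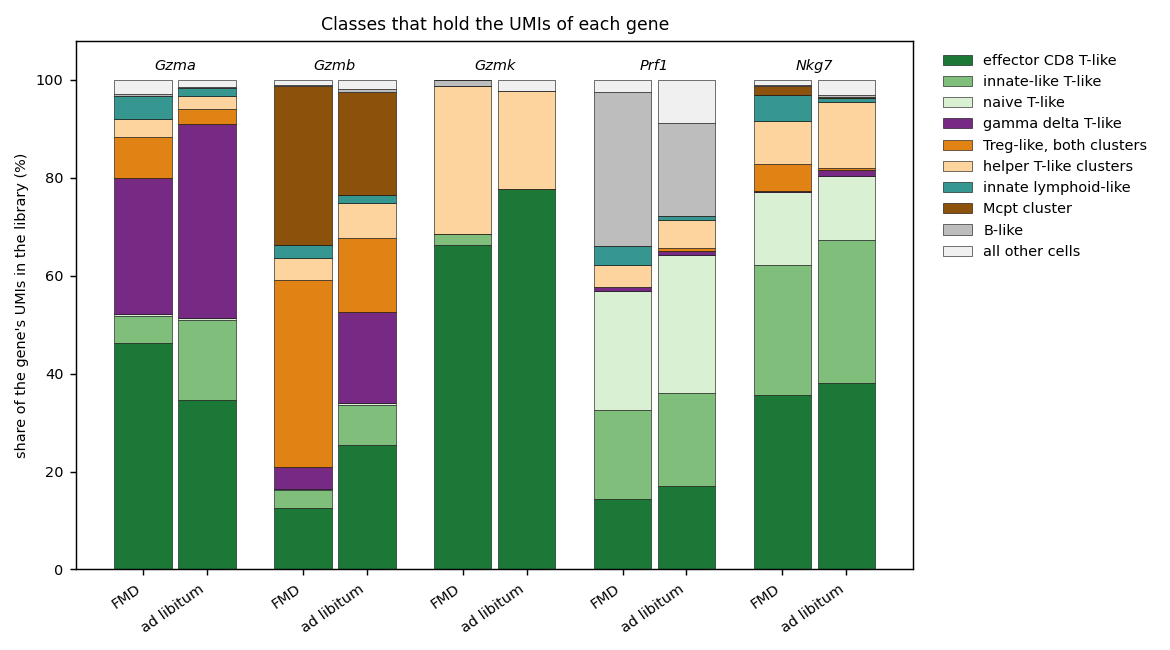
Share of each gene's UMIs (y axis, %) that lay in each class, with the FMD bar left of the ad libitum bar for each gene. For Gzmb, regulatory T-like cells and the Mcpt cluster held 38.2% and 32.3% in the FMD library, against 15.1% and 21.1% in the ad libitum library. For Gzmk, effector CD8 T-like cells held 66.3% in FMD and 77.8% in ad libitum.

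Effector CD8 T-like cells numbered 84 in the FMD and 109 in the ad libitum library, at median depths of 7114.5 and 7232 UMIs, and carried Cd8a at 563 and 624 CPM. Nkg7 was found in 84 of 84 FMD cells and 107 of 109 ad libitum cells, at 1427 CPM [1333, 1525] in FMD and 1167 CPM [1095, 1243] in ad libitum. That level stood above that of innate-like T-like cells by a log2 ratio of 1.18 [1.03, 1.33] in the FMD library and 0.84 [0.71, 0.98] in the ad libitum library. Gzmk had 57 FMD and 70 ad libitum UMIs here (94.1 and 84.0 CPM), and most of the rest lay in the helper T-like clusters. Its level was 8.93 times that of the helper T-like cluster led by Tnfsf11 in FMD, and 10.2 times in ad libitum.

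Gzmb stood at 756 CPM [689, 829] in FMD and 656 CPM [602, 713] in ad libitum effector CD8 T-like cells, and Gzma at 605 CPM [544, 670] and 761 CPM [703, 823]. Prf1 was low, at 56.2 CPM [38.9, 78.5] in FMD and 49.2 CPM [35.3, 66.8] in ad libitum. None of the 5 genes was 2-fold apart in this class, where 4.12% of 6305 genes with at least 20 UMIs were. The log2 ratios were -0.33 [-0.52, -0.15] for Gzma, 0.21 [0.02, 0.39] for Gzmb, 0.16 [-0.37, 0.69] for Gzmk, 0.19 [-0.51, 0.88] for Prf1 and 0.29 [0.16, 0.42] for Nkg7. Under other settings, given with the dependence on processing, each of the 5 signs turned at least once.

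Most of these cells had Nkg7, and fewer had a granzyme. A Gzmb UMI was found in 64.3% of FMD and 56.9% of ad libitum effector CD8 T-like cells, and in 29.8% and 30.3% after each cell was thinned to 1000 UMIs. For Gzma the shares were 28.6% and 24.8%, and 17.9% and 17.4% after thinning. Of the cells with Gzma, 23 of 24 in FMD and 23 of 27 in ad libitum also had Gzmb, against 51.7% and 47.6% of the cells without Gzma, whose median depths were 7163 and 7352 UMIs beside 7048 and 6616 in the cells with it. Gzma was found in 35.3% of FMD and 29.0% of ad libitum effector CD8 T-like cells with Gzmk, and in 24.0% and 22.5% of those without.

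Gzma was uneven among cells: the 9 highest of 84 FMD cells held 82.8% of its UMIs, and in the ad libitum library 4 cells that also had a UMI of Trdc, the delta chain constant gene, held 285 of 634. Among the cells with no Trdc UMI, a split chosen after the values were seen, Gzma stood at 593 CPM in FMD and 432 CPM in ad libitum. The log2 ratio there was 0.46 [0.24, 0.67], the opposite sign to that of the whole class.

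**Figure D2:**
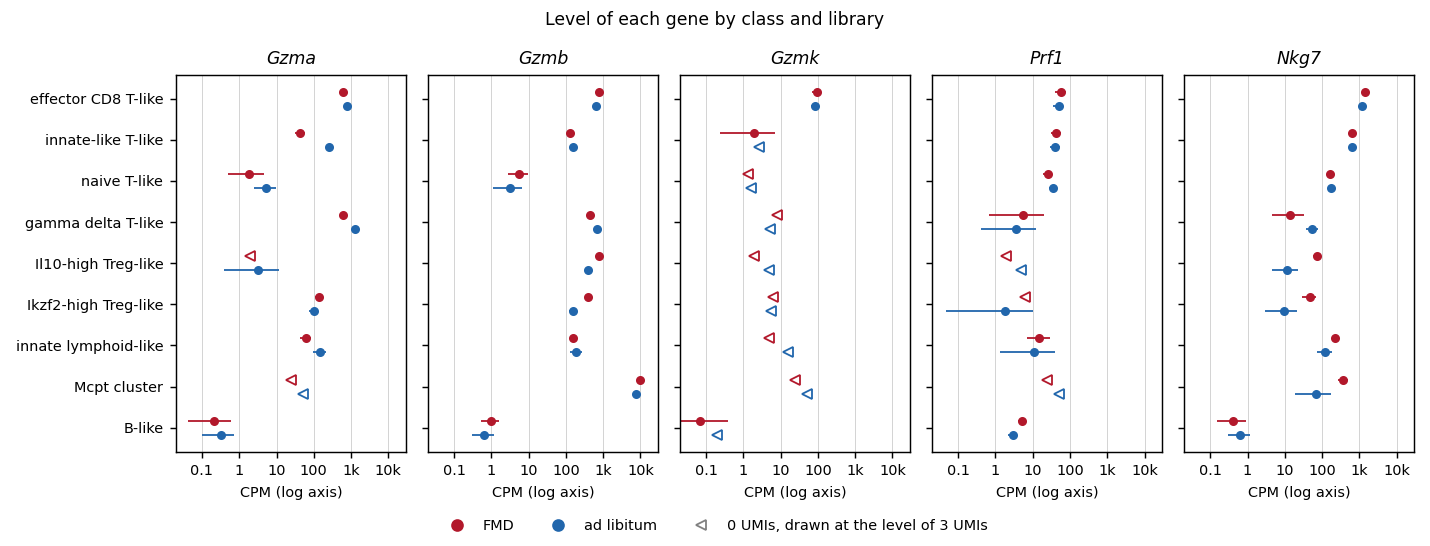
Level of each gene (x axis, CPM, log scale) in each class, with FMD above ad libitum; bars are 95% counting intervals and open triangles mark 0 UMIs, drawn at the level that 3 UMIs would give. Gzmb is highest in the Mcpt cluster, at 9627 CPM in FMD and 7675 CPM in ad libitum, and Nkg7 in effector CD8 T-like cells, while B-like cells stay under 1 CPM for Gzma, Gzmb and Nkg7.

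Innate-like T-like cells, a cluster with Klra7 and Xcl1 that also holds natural killer cell genes, numbered 142 in FMD and 156 in ad libitum. Nkg7 was at 630 CPM [582, 680] in FMD and 650 CPM [604, 698] in ad libitum, and Prf1 at 41.9 CPM [30.3, 56.5] and 39.9 CPM [29.2, 53.3], and the interval of each log2 ratio included 0. Gzmb stood at 128 CPM [107, 152] in FMD and 155 CPM [134, 180] in ad libitum. Gzma was the gene that stood apart, with 44 UMIs in FMD and 299 in ad libitum (42.9 and 260 CPM, log2 ratio -2.60 [-3.09, -2.14]). In this class 4.53% of 7599 genes were at least 2-fold apart.

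Few cells carried that Gzma. It was found in 3 FMD and 10 ad libitum cells, with 38 of the 44 UMIs in 1 FMD cell and 104 of the 299 in 1 ad libitum cell. Without the highest cell of each library the log2 ratio was -4.86, and with other clusterings it was -0.88 at resolution 0.5, less than 2-fold, and -5.79 at resolution 2. By a split chosen after the values were seen, 215 of the 299 ad libitum UMIs lay in 5 of 23 cells with neither a Cd3 nor a Trdc UMI, and none of the 48 such FMD cells had a Gzma UMI. Of those ad libitum UMIs, 163 lay in 4 cells with Ncr1, a receptor gene of natural killer and innate lymphoid cells. The make-up of the cluster differed too. Cells with no Cd3 or Trdc UMI were 33.8% of it in FMD and 14.7% in ad libitum, with median depths of 4721 and 5536 UMIs, Trdc stood at 63.4 and 162 CPM, Ncr1 at 55.6 and 28.7 CPM and the B cell gene Cd79a at 49.7 and 21.7 CPM; their part in the Gzma result was not tested.

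Naive T-like cells, 304 in FMD and 272 in ad libitum, had Nkg7 at 162 CPM [146, 180] in FMD and 173 CPM [155, 193] in ad libitum. Nearly all of it sat in the cells with a Cd8a or Cd8b1 UMI, at 302 CPM in FMD and 316 CPM in ad libitum, against 1.77 and 2.10 CPM in cells with Cd4 and no Cd8. Prf1 stood at 25.6 CPM [19.4, 33.1] in FMD and 35.1 CPM [27.3, 44.5] in ad libitum. Gzmb had 12 and 6 UMIs and Gzma 4 and 10, in at most 6 cells of a library, and Gzmk none. None of the 5 genes was called 2-fold apart in naive T-like cells, where 3.12% of 8142 genes were.

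Gamma delta T-like cells numbered 48 in FMD and 70 in ad libitum and were of the kind that carries Il17a, with Trdc at 3166 and 3678 CPM. Gzma and Gzmb were the main genes of the 5 in these cells. Gzma stood at 597 CPM [521, 682] in FMD and 1258 CPM [1168, 1353] in ad libitum, a log2 ratio of -1.08 [-1.30, -0.86]. That was 0.988 times [0.832, 1.17] the level in effector CD8 T-like cells in FMD, and 1.65 times [1.48, 1.84] in ad libitum. Gzma was found in 11 cells of each library, where the cells with it had a median of 6 UMIs in FMD and 62 in ad libitum. The 7 highest of the 70 ad libitum cells held 89.5% of its UMIs, with 190 of the 725 in 1 cell. The 5 highest of the 48 FMD cells held 93.6%, with 67 of the 219 in 1 cell. Prf1 had 2 UMIs in each library and Gzmk none.

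Gzmb in gamma delta T-like cells was at 436 CPM [371, 509] in FMD and 696 CPM [630, 768] in ad libitum, with a log2 ratio of -0.67 [-0.95, -0.41]. That ratio rested on 1 ad libitum cell with 188 of the 401 UMIs, and was -0.05 without the highest cell of each library. A Gzmb UMI was found in 70.8% of FMD and 51.4% of ad libitum cells, and in 22.9% and 22.9% after thinning. Nkg7 had 5 UMIs in 3 FMD cells and 31 in 8 ad libitum cells (log2 ratio -1.98 [-3.70, -0.61]). Gzma and Nkg7 were the genes of the 5 at least 2-fold apart here, where 6.37% of 5572 genes were. Il17a itself stood at 1581 CPM in FMD and 3150 CPM in ad libitum, and cells with an Il17a UMI were 32 of 48 and 56 of 70. By this split, chosen after the values were seen, the Gzma log2 ratio was -0.67 [-0.90, -0.44] in cells with Il17a, less than 2-fold. In cells without Il17a it was -3.61 [-4.98, -2.48], from 7 FMD and 62 ad libitum UMIs, and all 62 lay in 1 cell.

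**Figure D3:**
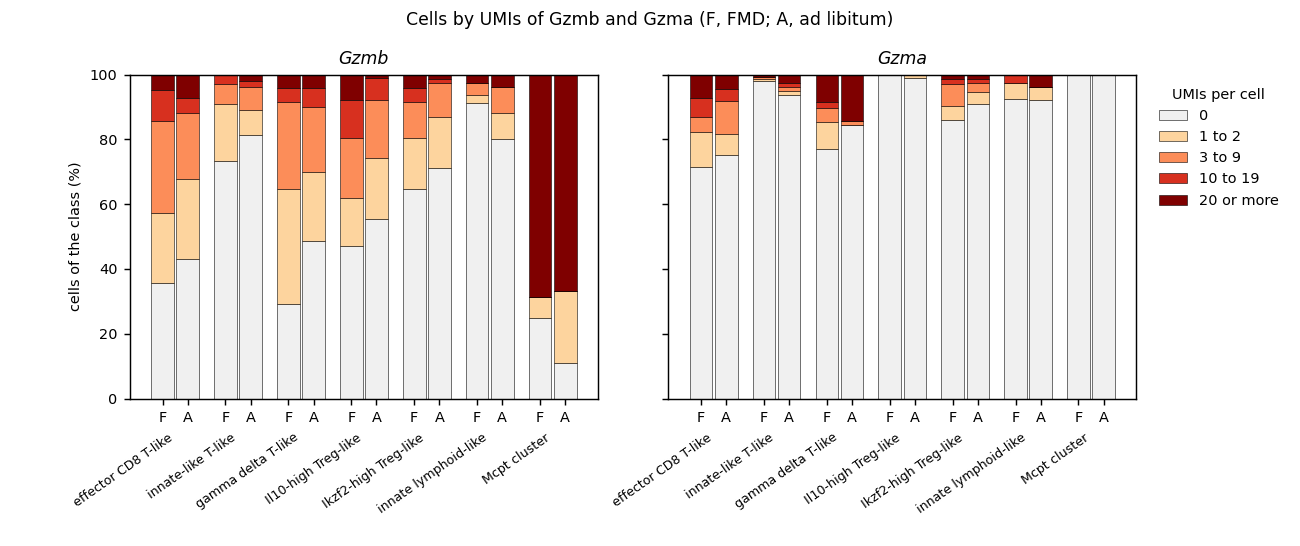
Share of the cells of each class (y axis, %) by their UMIs of Gzmb (left) and Gzma (right); F is FMD and A is ad libitum. Most Il10-high regulatory T-like cells with Gzmb had several UMIs, and the median in cells with any was 7.5 in FMD and 3 in ad libitum, while no cell of the Mcpt cluster had a Gzma UMI.

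Regulatory T-like cells fell into a cluster high in Il10 (216 FMD and 101 ad libitum cells) and a cluster high in Ikzf2, the gene of the transcription factor Helios (71 and 76 cells). Foxp3, which marks regulatory T cells, stood at 482 and 493 CPM in the Il10-high and at 627 and 586 CPM in the Ikzf2-high cluster, in FMD and ad libitum, and Cd8a was 0 in both. Gzmb was the main gene of the 5 in these cells and was higher in the FMD library. In the Il10-high cluster it had 1206 UMIs in FMD and 242 in ad libitum (777 CPM [734, 822] and 386 CPM [339, 438]), a log2 ratio of 1.01 [0.81, 1.21]. In the Ikzf2-high cluster it had 185 and 84 UMIs (392 CPM [338, 453] in FMD and 155 CPM [124, 192] in ad libitum), a log2 ratio of 1.34 [0.96, 1.73]. With both clusters together the log2 ratio was 1.30 [1.13, 1.48], where 3.93% of 8160 genes were at least 2-fold apart.

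Over both clusters, whose mix differed between the libraries, the share of cells with Gzmb and the UMIs in them were both higher in FMD before thinning. In the 2 clusters together a Gzmb UMI was found in 48.4% of FMD and 37.9% of ad libitum cells, and in 26.1% [21.0, 31.7] and 16.5% [11.2, 22.9] after thinning, so the thinned intervals overlapped. Over both clusters, cells with Gzmb had a median of 6 UMIs in FMD and 3 in ad libitum. By cluster, the thinned share in Il10-high cells was 31.4% in FMD and 19.15% in ad libitum. In Ikzf2-high cells the share was 35.2% in FMD and 28.95% in ad libitum. After thinning it was lower in FMD, at 10.14% against 13.16%. The thinned intervals of the libraries overlapped in each cluster. Over both clusters the log2 ratio was 1.40 without the highest cell of each library. With cells thinned to 1000 UMIs, the log2 ratio of each cluster alone was less than 2-fold, at 0.81 in the Il10-high and 0.58 in the Ikzf2-high cluster. In FMD the level in Il10-high cells was 1.03 times [0.92, 1.15] that of effector CD8 T-like cells, and in ad libitum 0.59 times [0.50, 0.69]. The same comparison over both clusters gave 0.91 times [0.82, 1.01] in FMD and 0.43 times [0.37, 0.49] in ad libitum.

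Il10 itself split the cells further, a description chosen after the values were seen. In the Il10-high cluster, cells with an Il10 UMI had Gzmb at 897 CPM in FMD and 485 CPM in ad libitum, and cells without one at 515 and 267 CPM. In the Ikzf2-high cluster 99 of the 185 FMD UMIs of Gzmb lay in 12 cells with Il10, at 1308 CPM, against 132 CPM in 10 such ad libitum cells. The cells of that cluster with no Il10 UMI had 217 CPM in FMD and 159 CPM in ad libitum, a log2 ratio of 0.45 [-0.01, 0.92].

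Of the other granule genes of the 5, regulatory T-like cells had almost no Prf1 or Gzmk UMI. Prf1 had 0 UMIs in FMD and 1 in ad libitum, over 287 and 177 cells, and Gzmk none; in the FMD library 0 UMIs allows up to 1.48 CPM at 3 counts. Gzma had 0 FMD and 2 ad libitum UMIs in the Il10-high cluster. In the Ikzf2-high cluster it had 67 UMIs in 10 FMD cells and 55 in 7 ad libitum cells (142 CPM [110, 180] and 101 CPM [76.4, 132]). Its log2 ratio in the Ikzf2-high cluster was 0.49 [-0.05, 1.03]. Over both clusters, whose mix differed between the libraries, the Gzma ratio had the opposite sign, at -0.56 [-1.09, -0.02]. That ratio changed sign under 4 other settings.

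Nkg7 was far lower in regulatory than in effector CD8 T-like cells but was also higher in FMD. It had 110 UMIs in 20 FMD cells of the Il10-high cluster and 7 in 5 ad libitum cells, a log2 ratio of 2.67 [1.58, 4.01]. Of those cells with Nkg7, 18 of 20 in FMD and 5 of 5 in ad libitum also had Gzmb. In the Ikzf2-high cluster Nkg7 had 22 UMIs in FMD and 5 in ad libitum (log2 ratio 2.34 [0.90, 4.10]), 16 of the 22 in 1 cell. Thinned to 1000 UMIs, the Il10-high log2 ratio was 0.74, and 2.90% of FMD and 0% of ad libitum cells had a UMI, of 207 and 94 cells. In each cluster Gzmb and Nkg7 were at least 2-fold apart, where 5.12% of 7447 genes in the Il10-high and 6.21% of 5443 genes in the Ikzf2-high cluster were. The B cell gene Cd79a stood at 25.1 CPM in FMD and 1.60 CPM in ad libitum Il10-high cells, and Trdc at 14.2 and 4.79 CPM; their part in these results was not tested.

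Innate lymphoid-like cells, which carried Gata3, Il1rl1 and Il13, numbered 81 in FMD and 25 in ad libitum. Nkg7 was found in 35 FMD and 8 ad libitum cells, at 218 CPM [183, 259] in FMD and 119 CPM [74.5, 180] in ad libitum, with a log2 ratio of 0.88 [0.22, 1.60]. Gzmb stood at 160 CPM [130, 195] in FMD and 189 CPM [132, 263] in ad libitum, with 52 of 96 FMD UMIs in 1 cell and 26 of 35 ad libitum UMIs in 1 cell. Its log2 ratio was -0.24 [-0.81, 0.36], and 0.54 without the highest cell of each library, which turned its sign. Gzma had 37 and 27 UMIs and a log2 ratio of -1.24 [-2.00, -0.47], but 26 of the 27 ad libitum UMIs lay in 1 cell and the ratio was 2.42 without the highest cell of each library. Prf1 had 9 and 2 UMIs and Gzmk none. Over the whole class Gzma was the gene of the 5 at least 2-fold apart, where 9.3% of 3829 genes were. In a split chosen after the values were seen, 11 FMD cells had a Cd3 UMI. They held 55 of the 96 Gzmb and 20 of the 37 Gzma UMIs, each in 2 cells. The 6 such ad libitum cells held 0 of either. In cells with no Cd3 UMI the log2 ratio was -1.72 [-2.41, -1.03] for Gzmb and -2.62 [-3.59, -1.69] for Gzma. The single high ad libitum cells named above were among these.

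The cluster named for mast cells held 16 FMD and 9 ad libitum cells, and its markers went partly against that name. The mast cell proteases Mcpt1 and Mcpt2 outnumbered Mcpt8, a protease of basophils, in 3 FMD and 3 ad libitum cells, while Mcpt8 outnumbered them in 11 FMD and 6 ad libitum cells and 2 FMD cells had none of the 3. It is therefore called the Mcpt cluster. Hdc, which makes histamine and is used by both cell types, was found in all 17 cells led by Mcpt8. Of these 17 cells, 10 had a UMI of Cpa3, 7 of Kit and 5 of Cma1, which were among the mast cell markers. None had a UMI of the mast cell markers Mcpt2, Mcpt4 or Tpsb2. Cd200r3, a basophil marker, was found in 9 of the 17.

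Gzmb was higher in the Mcpt cluster than in any other class in both libraries. It had 1177 UMIs in FMD and 454 in ad libitum, at 9627 CPM [9085, 10190] and 7675 CPM [6985, 8415], and it ranged per cell over 0 to 316 UMIs (median 34.5) in FMD and 0 to 320 (median 23) in ad libitum. The level was 12.7 times that of effector CD8 T-like cells in FMD and 11.7 times in ad libitum, and these few cells held 32.3% and 21.1% of their library's Gzmb UMIs. The cells led by Mcpt8 had Gzmb at 10670 CPM in FMD and 8337 CPM in ad libitum, and the cells led by Mcpt1 and Mcpt2 at 4688 and 4635 CPM. The log2 ratio of the libraries was 0.33 [0.17, 0.49], but 1 ad libitum cell held 320 of the 454 UMIs and the ratio was 1.46 without the highest cell of each library.

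No Gzma, Gzmk or Prf1 UMI was found in the Mcpt cluster, which allows up to 24.5 CPM in FMD and 50.7 CPM in ad libitum at 3 counts. Nkg7 had 45 UMIs in FMD and 4 in ad libitum, all in cells led by Mcpt8 (log2 ratio 2.44 [0.99, 4.38]), where 20.6% of 1284 genes were at least 2-fold apart. Tnf stood at 1031 and 203 CPM and the protease gene Cpa3 at 1178 and 270.5 CPM, so other genes of these few cells also differed.

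**Figure D4:**
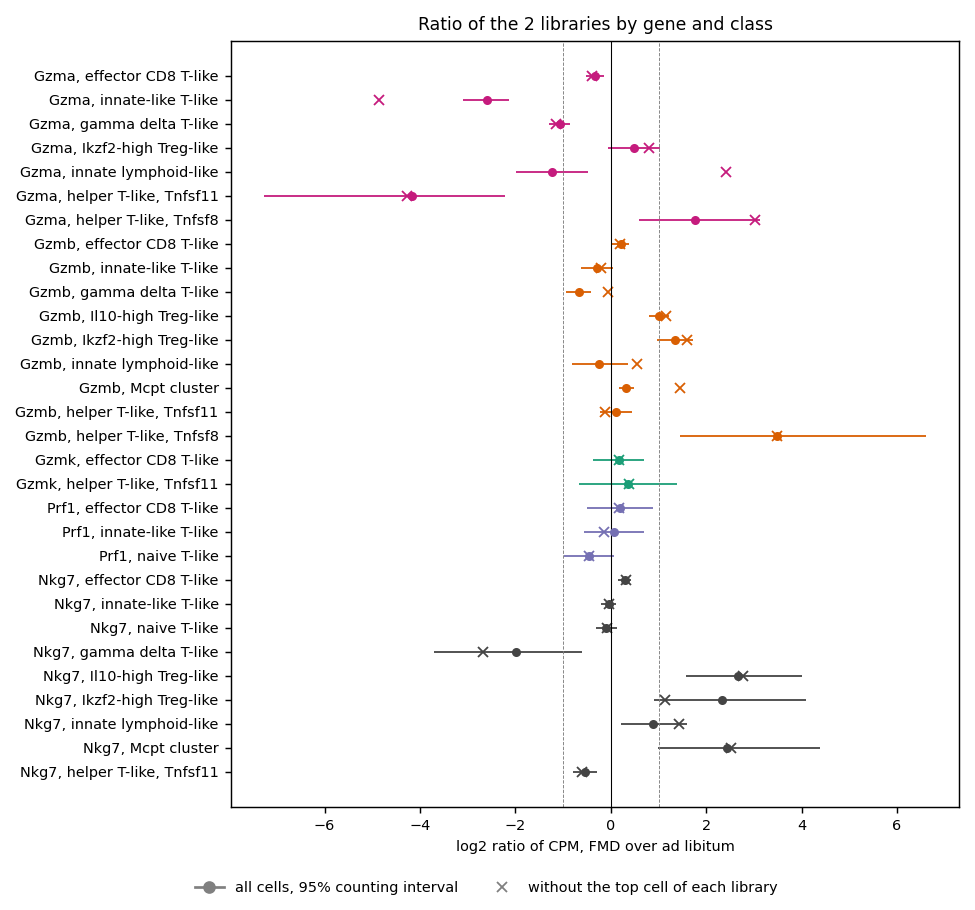
Log2 ratio of CPM, FMD over ad libitum (x axis), for each gene and each T-like, innate lymphoid-like or Mcpt class with at least 20 UMIs over both libraries; points are all cells with 95% counting intervals, crosses are without the cell with the most UMIs of the gene in each library, and dashed lines mark 2-fold. Gzmb in both regulatory T-like clusters keeps its place without those cells, and Gzma in innate lymphoid-like cells moves to the other side, at 2.42.

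Over the 7 T-like and innate lymphoid-like classes described so far, with the Mcpt cluster left out for its few cells, 22 of 35 gene and class pairs had at least 20 UMIs, and 8 were at least 2-fold apart, 4 higher and 4 lower in FMD. With the 2 helper T-like clusters added there were 28 such pairs of 45, and 11 were at least 2-fold apart, 6 higher and 5 lower in FMD. Without the helper clusters, the 4 higher pairs were Gzmb and Nkg7 in the 2 regulatory T-like clusters. The 4 lower were Gzma in innate-like, gamma delta and innate lymphoid-like cells and Nkg7 in gamma delta T-like cells. The shares of all genes given by class, between 3.12% and 9.3%, are what these counts stand beside.

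In the order of classes by level, effector CD8 T-like cells came first for Gzmk, Prf1 and Nkg7 in both libraries, and the Mcpt cluster for Gzmb. For Prf1 the intervals of each neighbouring pair of classes overlapped in both libraries, while classes further apart, such as effector CD8 and Il10-high regulatory T-like cells, did not overlap. For Nkg7 no neighbouring intervals overlapped among the first 7 classes in FMD. In ad libitum those of naive T-like, Tnfsf11-led helper T-like, innate lymphoid-like and Mcpt cells each overlapped the next, down to gamma delta T-like cells. The interval of gamma delta T-like cells did not overlap that of the class after them. For Gzmb the place after the Mcpt cluster went to Il10-high regulatory T-like cells in FMD and to gamma delta T-like cells in ad libitum, with effector CD8 T-like cells next and their interval overlapping in both. For Gzma, effector CD8 and gamma delta T-like cells overlapped in FMD, and in ad libitum gamma delta T-like cells stood first with no overlap. That place rested on 11 of 70 gamma delta T-like cells, and the intervals cover counting error only, not the spread between cells.

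The helper T-like cells are given by cluster, because 1 of the 2 had none of its own markers among its 10 leading genes. In the cluster led by Tnfsf11, Nkg7 stood at 113 CPM [98.2, 130] in FMD and 165 CPM [148, 183] in ad libitum, and Gzmb at 79.9 and 73.9 CPM. Gzma had 2 UMIs in FMD and 41 in ad libitum, 19 of the 41 in 1 cell, a log2 ratio of -4.17 [-7.26, -2.22]. In the cluster led by Tnfsf8, Gzmb had 22 UMIs in 7 FMD cells and 2 in 2 ad libitum cells, a log2 ratio of 3.48 [1.46, 6.61]. Gzma had 27 and 8 UMIs there, with 19 of the 27 in 1 FMD cell and 7 of the 8 in 1 ad libitum cell, and a log2 ratio of 1.77 [0.60, 3.12]. The 1 called pair of the Tnfsf11-led cluster and the 2 of the Tnfsf8-led cluster rested on few cells. Of all genes, 3.35% of 8347 in the first and 3.19% of 8313 in the second were at least 2-fold apart.

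The list of granule assembly and activation holds 12 genes, among them Srgn, the proteoglycan that packs granzymes, and Ctsc, the protease that activates them. In Il10-high regulatory T-like cells 10 of the 12 had at least 20 UMIs and none was 2-fold apart, with a median log2 ratio of 0.02 beside 0.02 for all genes. Srgn there stood at 4023 CPM in FMD and 3972 CPM in ad libitum. Of the 11 genes of granule release, such as Rab27a and Stx11, 11 passed and none was 2-fold apart, with a median of 0.17. Of 12 regulators 9 passed there, and 1, not named here, was at least 2-fold higher in FMD. It was the 1 gene so far apart of the 36 list genes that passed in this class, beside 5.12% of all genes.

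In effector CD8 T-like cells 11 of 12 assembly genes and 11 of 11 release genes passed and none was 2-fold apart, with medians of 0.13 and -0.03 beside 0.01 for all genes. Of the 6 granzyme inhibitors 4 passed and none was 2-fold apart, at a median of -0.60. Serpinb9, which blocks granzyme B, stood at 131 CPM in FMD and 229 CPM in ad libitum, and the related Serpinb6b at 119 and 214 CPM. Of 10 other killing and effector genes all passed, and Ccl3, a chemokine, was 2-fold higher in FMD (41.3 and 19.2 CPM). Of 12 regulators 10 passed and none was 2-fold apart, among them Eomes at 155 and 113 CPM and Tbx21, the gene of T-bet, at 152 and 90.0 CPM.

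In the innate-like T-like cells, 5 of the 49 genes of all these lists with at least 20 UMIs were at least 2-fold apart, beside 4.53% of all genes. Gzmc, a neighbour of Gzmb, had 157 UMIs in 15 FMD cells and 42 in 9 ad libitum cells (log2 ratio 2.07 [1.57, 2.60]), the opposite direction to Gzma. Ifng, the gene of interferon gamma, had 234 and 113 UMIs (log2 ratio 1.22 [0.89, 1.55]). Rab27a, which docks granules, stood at 28.3 CPM in FMD and 13.9 CPM in ad libitum, Serpinb1a at 34.1 and 11.3 CPM, and Serpinb6a at 9.75 and 23.4 CPM. The 12 assembly genes all passed with none 2-fold apart. In Ikzf2-high regulatory T-like cells, 1 of the 33 list genes with at least 20 UMIs was 2-fold apart, beside 6.21% of all genes. It was Serpinb9, lower in FMD, with 10 and 30 UMIs. List genes 2-fold apart, not named here, were 3 of 38 in gamma delta T-like cells, beside 6.37% of all genes. They were 3 of 25 in innate lymphoid-like cells, beside 9.3%, and 2 of 37 in naive T-like cells, beside 3.12%.

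Over the 42 sums of a cluster and a library, the genes whose levels were most like each member were found by Pearson's r of log2 CPM, which is given as a description, since sums of 1 library share its depth and both libraries share clusters. Gzmb was most like Il12rb1 (0.93) and Camk2n1 (0.92), Gzma like Akr1c13 (0.86) and Pdcd1 (0.85), and Gzmk like Itga1 (0.85) and Eomes (0.85). Prf1 was most like Cd8a (0.88) and Eomes (0.83), and Nkg7 like Gm33104 (0.90) and Ctsw (0.89). Only sums of at least 20 cells were used, which left out the Mcpt cluster, where Gzmb was highest and Gzma had 0 UMIs. Over these sums, Gzma and Gzmb were the most alike of the 5 genes, at 0.79, followed by Prf1 and Nkg7, at 0.77. Gzmb and Prf1 were the least alike, at 0.30.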

How the data were processed

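Droplet single-cell RNA-seq was made with 10x 3′ chemistry per the labels. The deposited values are whole-number UMI counts of each gene in each barcode, which the authors had not normalized; the lowest barcode had 500 UMIs in both libraries, so barcodes had been selected before deposit. The build GRCm38 and the tools Seurat 2.3.4, Cell Ranger 3.1.0 and CASAVA 1.8 are given per the submitters' processing notes. The members, the gene lists and the splits of classes were chosen with earlier results of these data known.

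Barcodes were kept with at least 200 genes and at most 20% mitochondrial UMIs, which removed 441 and 694 in FMD and 475 and 661 in ad libitum. Scrublet called 0.042% and 0.04%, too few to have worked, so cells with at least 5 UMIs and 0.5 per 1000 UMIs of 2 panels (B, T, myeloid) were also removed, for 120 and 88 doublets in all. Kept cells were clustered in scanpy 1.11.5 (2000 variable genes, 30 components, 15 neighbours, leidenalg 0.10.2 at resolution 1, no batch correction), leaving out immunoglobulin, T cell receptor variable and joining, mitochondrial, ribosomal and granzyme genes, Prf1 and Nkg7. The 23 clusters were named by CPM thresholds of marker genes that were set after the clusters had been seen. Authors' cell names were not used here.

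Ratios are log2 of CPM in FMD over ad libitum with exact conditional binomial intervals, levels have exact Poisson and shares exact Clopper-Pearson intervals, each at 95% and for counting error only. A pair was called with at least 20 UMIs over both libraries and a ratio of at least 2-fold. A count of 0 was given the floor of 3 counts. Named genes were drawn from the members, up to 4 genes with the most UMIs per list, and list genes at least 2-fold apart. They were also drawn from the 5 genes most like each member by Pearson's r of log2 (CPM + 10) over clusters with a library sum. The ratio step was checked on simulated counts. Gene positions are from GENCODE vM21 (GRCm38), matched by Ensembl ID.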

Additional observations from a re-analysis of the deposited data

Results flagged for a closer look

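Nkg7 and Gzma each differed between the libraries in opposite directions in different classes. Nkg7 was lower in FMD than in ad libitum gamma delta T-like cells (log2 ratio -1.98, from 5 and 31 UMIs) and higher in FMD than in ad libitum Il10-high regulatory T-like cells (2.67, from 110 and 7 UMIs) and Ikzf2-high regulatory T-like cells (2.34, from 22 and 5 UMIs). Gzma was lower in FMD than in ad libitum innate-like T-like (log2 ratio -2.60), innate lymphoid-like (-1.24) and gamma delta T-like cells (-1.08) and in the helper T-like cluster led by Tnfsf11 (-4.17, from 2 and 41 UMIs), and higher in FMD in the helper T-like cluster led by Tnfsf8 (1.77, from 27 and 8 UMIs). Without the highest cell of each library, the Gzma ratio in innate lymphoid-like cells turned to 2.42 and that of Nkg7 in Ikzf2-high cells fell to 1.14. The other ratios named here kept their sign. In the Tnfsf8-led cluster 1 FMD cell held 19 of the 27 Gzma UMIs and 1 ad libitum cell 7 of the 8. With 1 library per diet the difference between classes was not tested.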

How the results depend on the processing

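Of 213 recomputed log2 ratios under 9 other settings, 24 changed sign: 9 of ratios whose counting interval excluded 0, given next, and 15 of ratios whose interval included 0, of which 10 stayed within that interval. In effector CD8 T-like cells these were Gzmk (0.16), at -0.211 with marker gates and -0.019 at no more than 10% mitochondrial UMIs, and Prf1 (0.19), at -0.209 with the gates. The Gzma ratio in effector CD8 T-like cells (-0.33) was 0.009 at no more than 10% mitochondrial UMIs. The Gzmb ratio there (0.21) was -0.097 after thinning and -0.043 with marker gates per cell in place of clusters (274 FMD and 308 ad libitum cells), and that of Nkg7 (0.29) was -0.074 with the gates. The Gzma ratio in innate lymphoid-like cells was 2.418 without the highest cell of each library. The Gzma ratio over both regulatory T-like clusters (-0.56) was 0.053 at resolution 2, 0.072 with no doublets removed, 1.416 after thinning and 0.797 with the gates. The Gzmb ratio over both regulatory T-like clusters lay between 1.01 and 1.56 under 9 settings, and that of Gzma in gamma delta T-like cells between -1.73 and -1.06 under 8. Of the 8 pairs called, Gzma in innate-like T-like cells was less than 2-fold apart at resolution 0.5 (-0.884; range -5.786 to -0.884), and after thinning so were Gzmb (0.811) and Nkg7 (0.736) in Il10-high regulatory T-like cells, Gzmb in Ikzf2-high cells (0.577) and Gzma in innate lymphoid-like cells (-0.688). Helper T-like clusters were recomputed only without the highest cells.

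The count of pairs at least 2-fold apart (8) was 5 at resolution 0.5 and 2 after thinning. Those higher in FMD (4) were 2 at resolution 0.5, 2 with no doublets removed and 0 after thinning, and those lower (4) were 2 after thinning. Part of this is by construction: thinning leaves fewer pairs with 20 UMIs, and the Ikzf2-high cluster did not form at resolution 0.5, at no more than 10% mitochondrial UMIs or with no doublets removed, nor the effector CD8 T-like cluster at resolution 0.5. The cause of the other changes was not tested. No paired analysis was possible because each diet has 1 library. Depth limits Prf1 and Gzmk, whose cells mostly held 1 UMI.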

Other observations

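Plasma-like cells had a Gzma UMI in 2 of 32 FMD and 13 of 93 ad libitum cells, at 3.83 and 19.8 CPM. Nkg7 stood there at 0 and 26.7 CPM and Prf1 at 5.74 and 11.4 CPM. The median depths of these cells, 40722 and 38021 UMIs, count immunoglobulin UMIs, which CPM leaves out. Whether these UMIs are free RNA was not tested. Single cells also stood out among germinal center B-like cells, with 18 Gzma UMIs in 1 FMD cell and 32 of 35 Gzmb UMIs in 1 ad libitum cell.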
